A study of Mus musculus with 8 samples.

Results

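Ubiquitin-specific proteases and E2 ubiquitin-conjugating enzymes were examined in the cortex of mice that express a mainly cytoplasmic human TDP-43. The members are all genes of the deposited results table whose symbol starts with Usp and a digit or with Ube2. They were joined by transcript identifier to the deposited values of each mouse. This gave 72 transcripts of 71 symbols, with 44 Usp transcripts and 28 Ube2 transcripts, out of 28662 transcripts with values. All 72 were among the 10588 genes that reached 10 RPM or more in 1 mouse or more, RPM being reads scaled to a common library size, and 69 reached it in every mouse. Not every member is an enzyme of its family. Usp6nl matches the symbol pattern but encodes a Rab GTPase-activating protein, and a second row with the symbol Ube2j2 (uc007ubh.1) is a pseudogene transcript.

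Ubiquitin is passed from an E1 activating enzyme to an E2 conjugating enzyme, which works with an E3 ligase to attach it to a target protein. The E2 largely sets which chain is built, and related E2 enzymes carry ubiquitin-like proteins such as NEDD8 instead. Ubiquitin-specific proteases are the largest family of deubiquitinases. They remove ubiquitin from proteins and recycle it, and several of them act on histones, on receptors in endosomes or on ubiquitin at the proteasome. TDP-43 is an RNA-binding protein that collects in ubiquitinated inclusions in amyotrophic lateral sclerosis and frontotemporal dementia.

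RNA came from the cortex of 4 bigenic and 4 nontransgenic mice, all of strain C57BL/6. The bigenic mice carried Camk2a-tTa and deltaNLS-hTDP-43, a human TDP-43 with a mutated nuclear localization signal. The paper describes this protein as mainly cytoplasmic and proposes that part of it still reaches the nucleus. The Camk2a promoter confines the transactivator, and with it the human protein, mainly to forebrain excitatory neurons, and doxycycline keeps it off. Per the study's methods, the nontransgenic mice were bred from parents heterozygous for these transgenes, and both genotypes received doxycycline in the diet until 28 days of age and were sampled after 10 days without it. Effects of the transactivator alone cannot be told apart from those of human TDP-43, since no mice with the transactivator alone are in this comparison. Whole cortex was sequenced, so that fewer cells of a type and less RNA per cell cannot be told apart either.

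The deposited values are normalized counts, that is, reads per gene after scaling of each library and rounding to whole numbers. They summed to between 20.1 M and 22.0 M per mouse, from an estimated 10.6 M to 31.9 M reads counted in genes. That estimate rests on the whole numbers that scaling and rounding skip or double in each library. The highest member value in any mouse was 8295 normalized counts. The transcript uc999vvf.1, which has no gene symbol, had 29375 to 41550 normalized counts in the bigenic and 5 to 80 in the nontransgenic mice, and endogenous Tardbp had 4908 to 5502 against 6116 to 7116. Mice are numbered in column order within their genotype. Bigenic mouse 2 stood apart. It was the shallowest library, it lay at 46.0 on the first principal component of all genes against 12.8 to 15.1 for the other bigenic mice, and it was the bigenic mouse farthest from its group median in 50 of the 72 members (69.4%, against 66.4% of all genes tested). The same component separated the genotypes, with nontransgenic mouse 4 at -14.0 and the other nontransgenic mice at -26.5 to -21.3. Nontransgenic mouse 4 was the control farthest from its group median in 37 of the 72 members (51.4%, against 43.8% of all genes tested). Values without bigenic mouse 2 are given beside the results that move most without it.

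Marker levels of cell types moved with genotype as well. Of 8 choroid plexus markers listed, 4 were tested, and all 4 rose. Of these, Clic6, F5 and Kl reached 10 RPM in bigenic mice only, so that this filter favoured a rise. Summed normalized counts of the 4 were 8385 to 19459 in the bigenic and 363 to 1203 in the nontransgenic mice. Ttr made up most of these sums, with 7741 to 18520 against 236 to 1023. Neuron markers summed to 120894 to 157107 against 166901 to 182586 (4 of 9 fell and 1 rose). Astrocyte markers summed to 119909 to 141704 against 149209 to 160535 (4 of 8 fell), and microglia markers to 4144 to 4997 against 5299 to 6112 (5 of 7 fell). Endothelial markers (1 of 6 fell) and oligodendrocyte markers (1 of 8 rose) had overlapping sums, with 3877 to 4502 against 4317 to 5444 and 63759 to 82958 against 62660 to 79188. All 7 defining markers (Snap25, Slc17a7, Gfap, Cx3cr1, Mbp, Ttr and Cldn5) were detected in every mouse. The part of these shifts in the values below was not tested.

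The question for each member was whether its RNA differed between bigenic and nontransgenic cortex. Of the 72 members, 22 changed, 12 upwards and 10 downwards, at a limma adjusted p-value below 0.05. That is 30.56% of the members, beside 35.9% of all genes tested (20.5% higher and 15.4% lower), so that a share near the background was called. Among the proteases 10 of 44 rose and 6 fell, and among the E2 transcripts 2 of 28 rose and 4 fell. The log2 fold changes, taken on the log2(normalized count + 1) scale as bigenic minus nontransgenic, had a median of 0.007 over the members and 0.03 over all genes. Changes were mostly moderate. The 12 rises lay between 0.29 and 1.06 and the 10 falls between -1.01 and -0.26, and a difference of at least 2-fold was reached by Ube2m and Ube2e1 only. In 28 members the 4 bigenic values did not overlap the 4 nontransgenic values, 14 of them higher and 14 lower, where 39.0% of all genes tested showed no overlap (22.3% higher and 16.7% lower). Of these 28 members 21 were called. An unadjusted p-value below 0.05 was found for 35 members (48.6%, beside 46.7% of all genes tested).

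**Figure D1:**
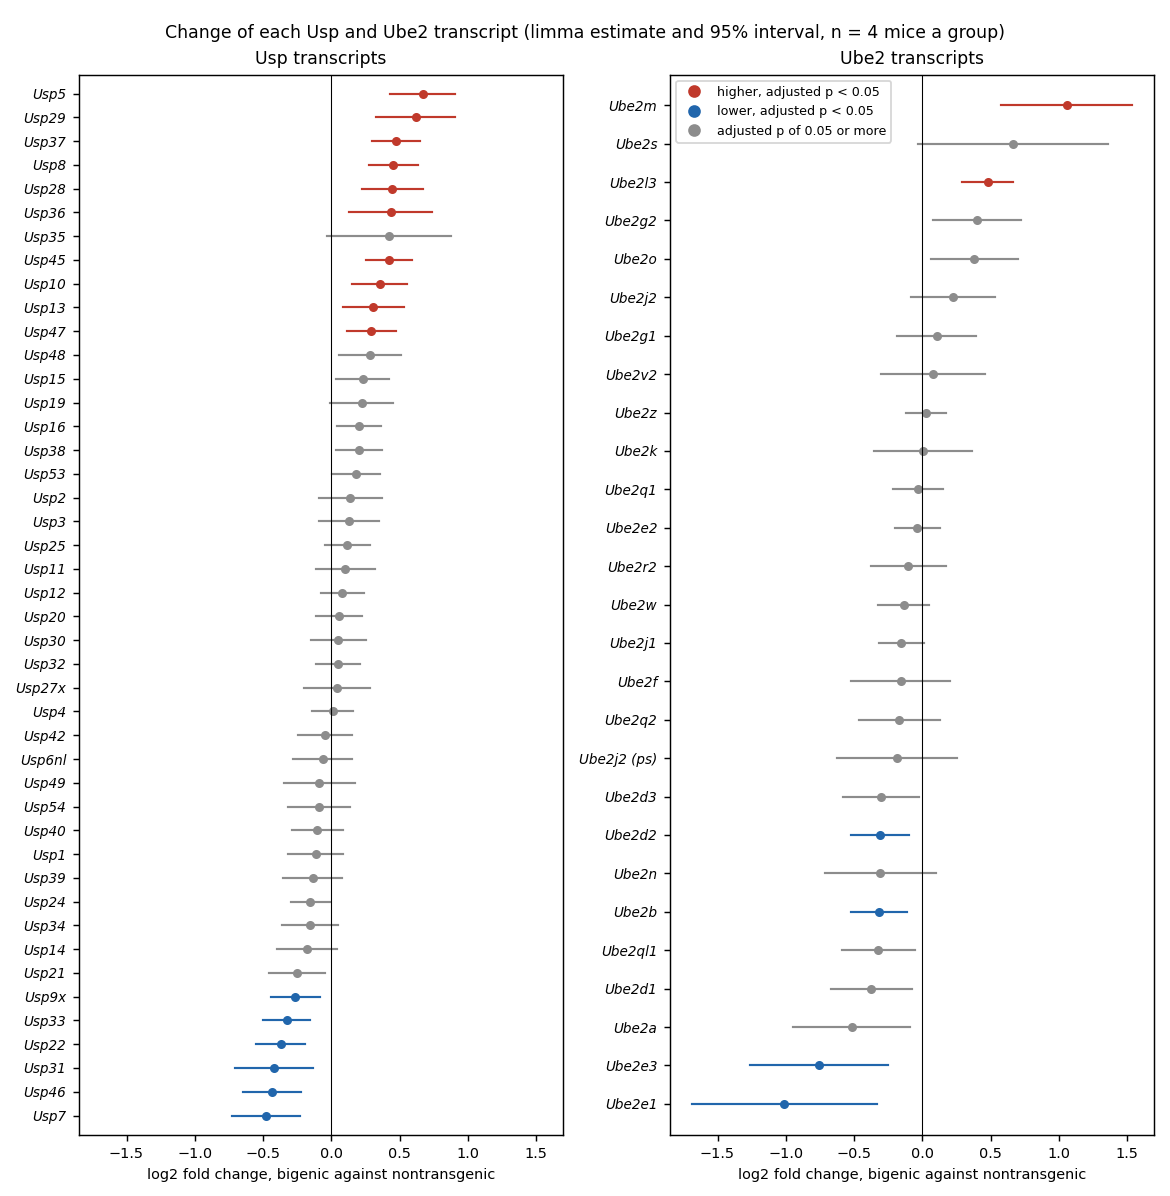
Log2 fold change of each Usp (left) and Ube2 (right) transcript, bigenic against nontransgenic, with its 95% confidence interval from limma (n = 4 mice a group). Red and blue mark the 12 members that rose and the 10 that fell, grey those of the other 50 that are reported here, and Ube2j2 (ps) is the pseudogene transcript.

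Levels of the families as a whole overlapped between genotypes. Normalized counts summed over the Usp transcripts were 98947 to 99870 in the bigenic and 94207 to 102211 in the nontransgenic mice. Over the Ube2 transcripts they were 43054 to 46169 and 43135 to 47004. The spread within groups was wider in the bigenic mice, with a median coefficient of variation per member of 11.0%, against 6.68% in the nontransgenic mice and 5.58% in the bigenic mice other than bigenic mouse 2. Without bigenic mouse 2 18 members rose and 13 fell (45.5% of all genes were then called, 25.3% higher and 20.2% lower), with 9 members added to the 22 and 0 lost. With limma's array weights, which give noisier libraries less weight, 25 members rose and 20 fell (61.0% of all genes, 34.1% higher and 26.9% lower). The member count was lower, at 14, without nontransgenic mouse 1, 2 or 3, where 25.1% to 26.0% of all genes were called.

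**Figure D2:**
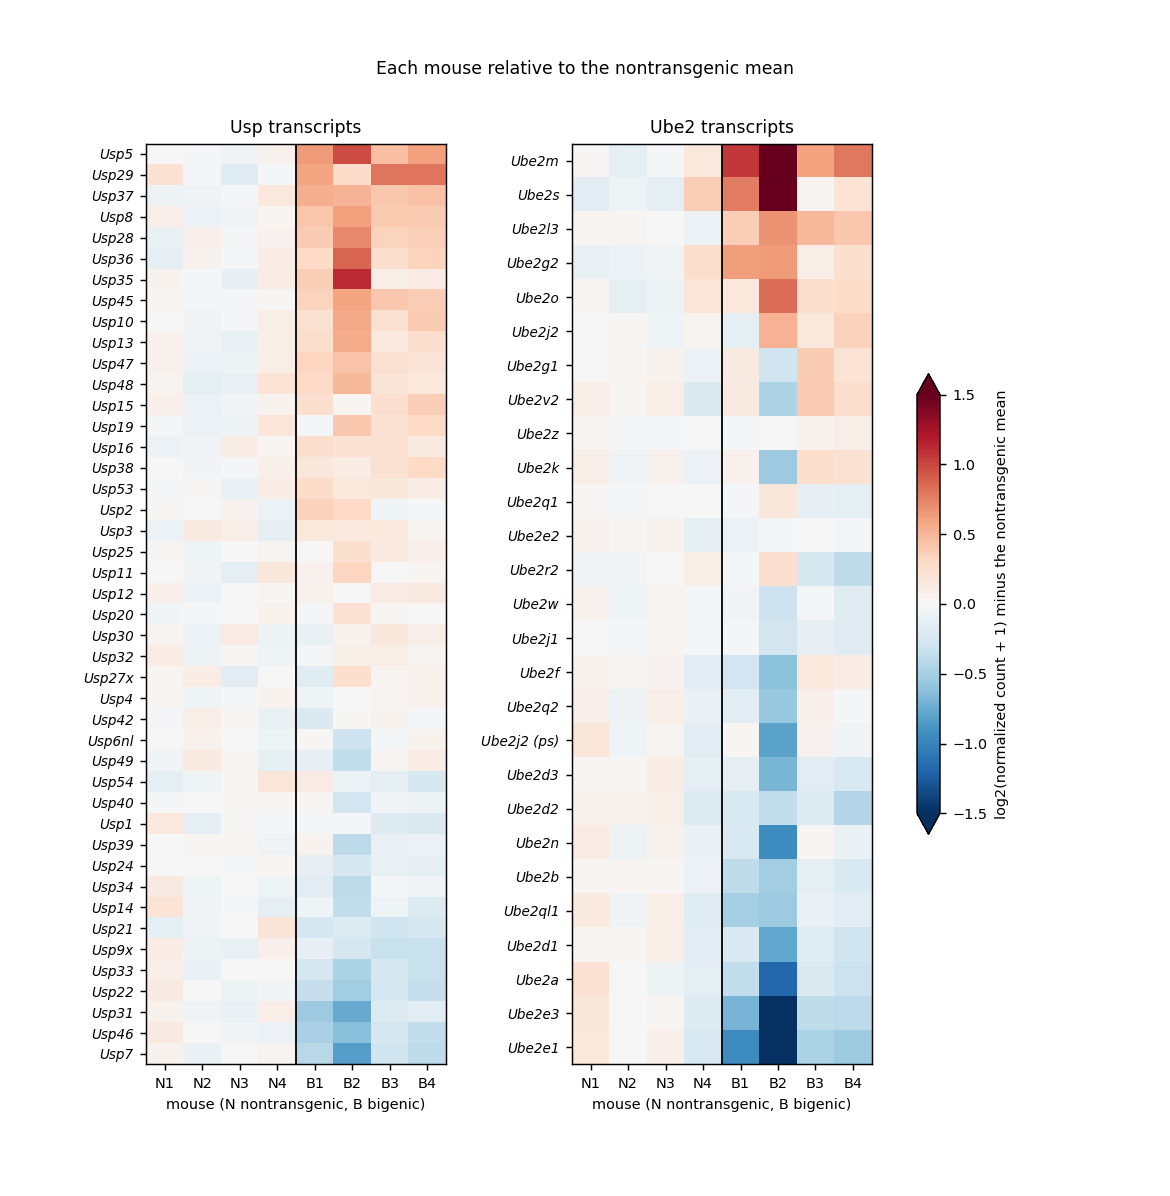
Each member in each mouse as log2(normalized count + 1) minus the mean of the nontransgenic mice, N1 to N4 and B1 to B4 in column order, with the members reported here sorted by their log2 fold change. Colours stop at 1.5 in either direction, and bigenic mouse 2 (B2) shows the deepest colours for Ube2m, Ube2s, Ube2e1 and Ube2e3.

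Among the proteases that act on free ubiquitin and at the proteasome, Usp5 and Usp13 rose and Usp14 did not pass the test. Usp5 (uc009dsa.1, mm9 chr6:124765037-124779502, minus strand) takes apart ubiquitin chains that are attached to no protein. It had 5272, 6684, 4645 and 5204 normalized counts in bigenic mice 1 to 4 and 3420, 3337, 3281 and 3555 in nontransgenic mice 1 to 4. Every bigenic mouse was above every nontransgenic mouse. Its mean was 5451 ± 869 against 3398 ± 119 (SD, n = 4), 1.60 times as high, with a log2 fold change of 0.67 (SE 0.11, limma adjusted p = 0.00123). It was the smallest adjusted p among the members, and without bigenic mouse 2 the change was 0.57. Usp13 (chr3:32716468-32836993, plus strand), the closest relative of Usp5, rose by 0.31 (limma adjusted p = 0.0368). That call held in 3 of the 8 fits that leave out 1 mouse and was lost, at changes of 0.27 to 0.33, without bigenic mouse 1 or 4 or nontransgenic mouse 1, 2 or 3. Usp14, a deubiquitinase bound to the proteasome, had 3300, 2678, 3314 and 2988 normalized counts in the bigenic and 3987, 3335, 3400 and 3155 in the nontransgenic mice. The groups overlapped, and the log2 fold change was -0.18 (limma adjusted p = 0.191).

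Of 6 proteases listed for DNA damage and the cell cycle, Usp28, Usp37, Usp45 and Usp47 rose and 0 fell, beside 20.5% of all genes higher and 15.4% lower. The median log2 fold change of the 6 was 0.36. The list was chosen with earlier results of these data known, and its share of rises was not tested. Other lists hold proteases that act on p53, of which Usp7 fell and Usp10 rose. Usp37 (uc007bmd.2, chr1:74482084-74590860, minus strand) removes ubiquitin from cyclin A. The bigenic mice had 1594, 1561, 1449 and 1485 normalized counts and the nontransgenic mice 1040, 1054, 1077 and 1223. These groups were well apart, with a log2 fold change of 0.47 (SE 0.08, limma adjusted p = 0.00164). Usp45 (uc008sda.1, chr4:21694303-21765019, plus strand), which acts on the DNA repair nuclease subunit Ercc1, had 2075, 2469, 2162 and 2117 in the bigenic against 1678, 1624, 1601 and 1657 in the nontransgenic mice. The log2 fold change was 0.42 (SE 0.08, limma adjusted p = 0.0024). Usp28 (uc009pir.1, chr9:48793490-48850622, plus strand) counteracts the ligase component Fbxw7 on Myc. It had 1182, 1489, 1139 and 1155 in the bigenic and 836, 951, 893 and 944 in the nontransgenic mice, and bigenic mouse 2 lay above the other bigenic mice. The log2 fold change was 0.45 (SE 0.10, limma adjusted p = 0.00727) and 0.36 without that mouse. Usp47, which supports base excision repair by stabilizing DNA polymerase beta, rose by 0.29 (limma adjusted p = 0.0187), and was no longer called without nontransgenic mouse 2 (0.26) or 3 (0.27). Usp1, a regulator of the Fanconi anaemia pathway, and Usp48 had log2 fold changes of -0.11 and 0.28 (limma adjusted p = 0.347 and 0.0531). Exons of Usp37 overlap those of Vil1, and exons of Usp45 overlap those of 2610029I01Rik, both on the opposite strand. Nothing states that strand was used in counting, and reads of such neighbours could then be counted together. Other members called that share exonic bases with a neighbour are named below.

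Proteases of endosomes and receptor trafficking moved in both directions, with 2 of 7 rising and 2 falling (all genes: 20.5% higher, 15.4% lower). Usp8 (uc008meb.1, chr2:126533064-126585033, plus strand) deubiquitinates receptors and the sorting machinery at endosomes. Its values were 2760, 3162, 2701 and 2704 in the bigenic and 2209, 1939, 1998 and 2113 in the nontransgenic mice. All bigenic mice were higher, by a log2 fold change of 0.45 (SE 0.08, limma adjusted p = 0.00226). Usp10, a partner of the stress granule protein G3bp1 that also acts on p53 and on recycling receptors, rose by 0.35 (limma adjusted p = 0.0134). Usp33, which recycles the beta-2 adrenergic receptor, fell by 0.33 on the log2 scale (limma adjusted p = 0.00945). Usp9x (uc009sri.1, chrX:12648624-12759008, plus strand) encodes a large X-linked protease of endocytic adaptors and had the highest nontransgenic mean of the members. Its values were 7065, 6419, 6098 and 6119 in the bigenic and 8295, 7305, 7151 and 8124 in the nontransgenic mice. The groups did not overlap and the difference was small, with a log2 fold change of -0.26 (SE 0.08, limma adjusted p = 0.0292). The call was lost, at -0.24 to -0.23, without bigenic mouse 3 or 4 or nontransgenic mouse 1 or 4, and 54.3% of the 50-base windows of the exons of Usp9x occur once in the genome. Usp2, Usp20 and Usp32, also in the list, did not pass the test.

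In the list of histone and nucleolar proteases 2 of 8 fell and 1 rose, at the same background. Usp22 (uc007jhc.2, chr11:60965287-60988557, minus strand) is the deubiquitinase of the SAGA coactivator complex and removes ubiquitin from histone H2B. The bigenic mice had 3660, 3253, 3885 and 3682 normalized counts and the nontransgenic mice 5123, 4636, 4418 and 4522. Every bigenic mouse was lower, and the log2 fold change was -0.37 (SE 0.08, limma adjusted p = 0.00652). Usp7 (uc007ycw.1, chr16:8688815-8792401, minus strand), which acts on Mdm2, p53 and chromatin proteins, had 3668, 2757, 3966 and 3757 against 5075, 4562, 4926 and 5011. It fell by 0.48 on the log2 scale (SE 0.11, limma adjusted p = 0.00866) and by 0.37 without bigenic mouse 2, whose value was the lowest. Usp36, a nucleolar protease, rose by 0.44 (limma adjusted p = 0.0316), or 0.29 without bigenic mouse 2, and was not called without nontransgenic mouse 1 (0.39), 2 (0.45) or 3 (0.43). Usp49, another protease of histone H2B, had 428, 362, 483 and 504 in the bigenic and 456, 513, 481 and 426 in the nontransgenic mice. These values overlapped widely, with a log2 fold change of -0.09 (95% interval -0.35 to 0.18, limma adjusted p = 0.589), and exons of Usp49 overlap those of Med20 on the same strand. The paper names both Usp49 and Med20 among its few genes with differentially spliced exons in these mice. A count summed over a gene does not measure such a change.

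Other protease lists held few calls. Usp46 (uc008xtg.1, chr5:74394487-74464455, minus strand), which is activated by the WD-repeat protein Wdr48 and acts on AMPA receptor subunits, fell. It had 1861, 1690, 2183 and 2024 normalized counts in the bigenic and 2853, 2625, 2512 and 2463 in the nontransgenic mice, without overlap. Its log2 fold change was -0.43 (SE 0.09, limma adjusted p = 0.00607), and those of the other Wdr48 partners, Usp1 and Usp12, were -0.11 and 0.08 without passing the test. Usp10 was the 1 of 6 p53 and Mdm2 proteases that changed. Among mitochondrial and endoplasmic reticulum proteases 0 of 4 changed, and in a list of Usp39, Usp53 and Usp54 0 of 3. At an unadjusted p below 0.05 the last 2 lists held 0 and 1. Over all genes tested 35.9% were called and 46.7% had an unadjusted p below 0.05, and lists this short cannot be told from those shares. Without bigenic mouse 2, Usp15 of the p53 and Mdm2 list was called higher (0.30, limma adjusted p = 0.00353), beside 45.5% of all genes. Of the 9 members in no list, Usp29 rose and Usp31 fell. Usp29 (uc009fcb.1, chr7:6913871-6916480, plus strand) is a paternally expressed imprinted gene next to Peg3. Its values were 2565, 2060, 2966 and 2954 in the bigenic and 1978, 1670, 1502 and 1676 in the nontransgenic mice. Here bigenic mouse 2 was the lowest of its group, and the log2 fold change of 0.62 (SE 0.13, limma adjusted p = 0.0053) was 0.73 without it. Usp31 changed by -0.42 (limma adjusted p = 0.0283), and the call held in 3 of 8 fits. It was lost, at -0.45 to -0.38, without bigenic mouse 1 or any 1 of the nontransgenic mice.

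**Figure D3:**
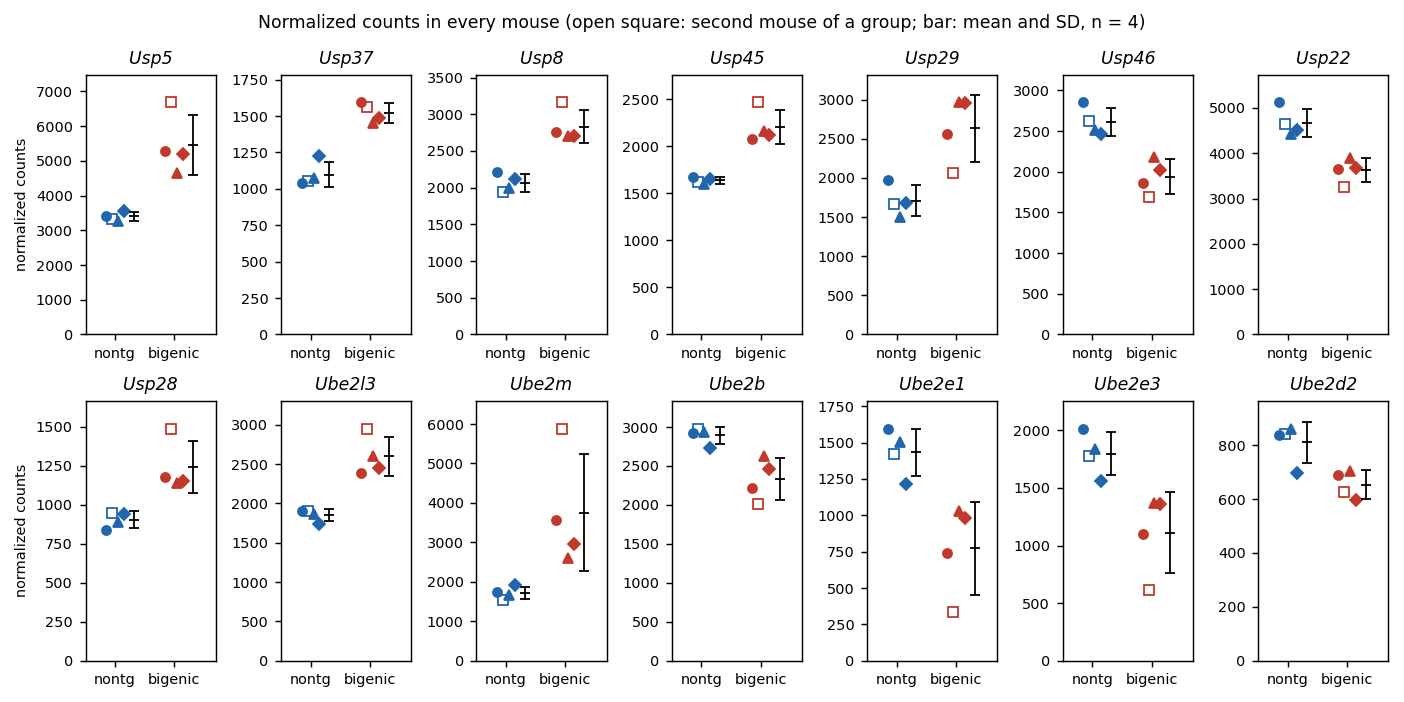
Normalized counts (vertical axes, from 0) of the 8 Usp and 6 Ube2 members with the smallest adjusted p. Each point is a mouse, blue for nontransgenic (nontg) and red for bigenic, the open square is mouse 2 of a group, and the bar gives mean and SD (n = 4). For Ube2m and Ube2e1 bigenic mouse 2, at 5882 and 335, lies farther out than the other bigenic mice, and for Ube2d2 the groups overlap.

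The E2 enzymes that load ubiquitin for a broad range of ligases had 1 rise and 3 falls among 8 tested (all genes: 20.5% higher, 15.4% lower). Each of the 3 falls was lost in 4 of the 8 fits that leave out a mouse. Ube2l3 (uc007ykl.1, chr16:17152106-17202742, minus strand) works with HECT and RING-between-RING ligases such as parkin. It had 2388, 2951, 2599 and 2453 normalized counts in the bigenic and 1910, 1906, 1870 and 1742 in the nontransgenic mice. All bigenic mice were above the controls, with a log2 fold change of 0.48 (SE 0.08, limma adjusted p = 0.0021). Ube2e1 (uc007shu.1, chr14:19115236-19164373, minus strand) and Ube2e3 (uc008kgn.1, chr2:78708281-78761450, plus strand) encode close relatives with an extended amino terminus. Ube2e1 had 743, 335, 1029 and 982 in the bigenic against 1595, 1419, 1506 and 1216 in the nontransgenic mice. Ube2e3 had 1101, 616, 1374 and 1362 against 2015, 1777, 1837 and 1565. Both genes were lower in every bigenic mouse, and lowest in bigenic mouse 2. The log2 fold change of Ube2e1 was -1.01 (SE 0.30, limma adjusted p = 0.027), and -0.65 without bigenic mouse 2 (limma adjusted p = 0.00153). For Ube2e3 it was -0.75 (SE 0.23, limma adjusted p = 0.0271), and -0.49 without that mouse (limma adjusted p = 0.00264). Ube2d2, of a group that serves many RING ligases, had 691, 625, 704 and 595 in the bigenic and 839, 842, 861 and 698 in the nontransgenic mice. Here the lowest nontransgenic mouse lay among the bigenic values, and the log2 fold change was -0.31 (SE 0.10, limma adjusted p = 0.0311). Its relatives Ube2d1 and Ube2d3 had log2 fold changes of -0.37 and -0.30 and did not pass the test (limma adjusted p = 0.0512 and 0.0831). These changes were -0.24 and -0.17 without bigenic mouse 2, and that of Ube2d1 passed (limma adjusted p = 0.0284). Only 46.4% of the 50-base windows of Ube2d2 and 72.1% of those of Ube2d3 occur once in the genome, so that reads shared between copies were lost from both.

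Ube2m had the largest rise of the members. It encodes the E2 that transfers NEDD8 to cullins, the scaffolds of a large class of E3 ligases. Ube2m (uc009ffd.1, chr7:13620587-13623622, minus strand) had 3580, 5882, 2596 and 2949 normalized counts in the bigenic and 1733, 1542, 1676 and 1911 in the nontransgenic mice. Every bigenic mouse was higher, and bigenic mouse 2 by the most. The mean was 3752 ± 1477 against 1716 ± 153 (SD, n = 4), 2.19 times as high, with a log2 fold change of 1.06 (SE 0.22, limma adjusted p = 0.00459). Without bigenic mouse 2 the change was 0.82 (limma adjusted p = 0.000159). Ube2f, the other NEDD8 E2, had 296 to 505 normalized counts in the bigenic and 408 to 472 in the nontransgenic mice, and its change of -0.16 on the log2 scale did not pass (limma adjusted p = 0.467) and was -0.01 without bigenic mouse 2.

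Ube2b and Ube2a are the mammalian Rad6 enzymes, which ubiquitinate histone H2B with Rnf20 and Rnf40 and PCNA with Rad18. Ube2b (uc007iut.2, chr11:51798999-51814264, minus strand) had 2219, 2010, 2633 and 2463 normalized counts in the bigenic against 2930, 2979, 2936 and 2729 in the nontransgenic mice. It fell by 0.32 on the log2 scale (SE 0.09, limma adjusted p = 0.0229). Ube2a (uc009sxv.1, chrX:34414353-34424210, plus strand) had 846, 482, 939 and 873 against 1266, 1082, 1034 and 994. The Ube2a groups did not overlap either, yet with the low value of bigenic mouse 2 its change of -0.52 did not pass the test (SE 0.19, limma adjusted p = 0.0593). Without that mouse the change was -0.30 and passed (limma adjusted p = 0.0177). Usp22 and Usp49, on the removing side of histone H2B, are given above.

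The E2 enzymes listed for particular ubiquitin chains held 0 calls among 7, beside 35.9% of all genes called. Without bigenic mouse 2, Ube2v2 (0.26, limma adjusted p = 0.0424) and Ube2g1 (0.24, limma adjusted p = 0.0227) were called higher, beside 45.5% of all genes called. With array weights, Ube2k, Ube2v2, Ube2g1 and Ube2g2 were called higher and Ube2r2 lower (-0.27), beside 61.0% of all genes called. Of those that build Lys63-linked chains, Ube2n had 2658, 1621, 3164 and 2907 normalized counts in the bigenic and 3375, 2960, 3215 and 2912 in the nontransgenic mice. Bigenic mouse 2 was far below the rest, and the log2 fold change was -0.31 (95% interval -0.72 to 0.10, limma adjusted p = 0.209), or -0.10 without that mouse. Its partner Ube2v2, which has no catalytic cysteine, had 0.08 (limma adjusted p = 0.736). Among the 5 E2 enzymes of Lys48 and Lys11 chains 0 were called and 1 had an unadjusted p below 0.05. Ube2k, which extends Lys48 chains, had 3808, 2492, 4357 and 4244 in the bigenic and 3869, 3488, 3782 and 3403 in the nontransgenic mice. The log2 fold change of Ube2k was 0.00 (95% interval -0.35 to 0.36, limma adjusted p = 0.987), its sign turned under some alternatives, and it was 0.19 without bigenic mouse 2. Ube2s, a chain-extending E2 of the anaphase-promoting complex, had the largest log2 fold change among the 50 members not called, 0.67, with 236 to 728 normalized counts in the bigenic and 205 to 298 in the nontransgenic mice. Bigenic mouse 2 had the 728, and without it the change was 0.33. The genome holds only 2.65% of its 50-base windows at a single place. The 3 E2 enzymes of the endoplasmic reticulum (Ube2g2, Ube2j1 and Ube2j2) and the 4 large or atypical ones (Ube2o, Ube2q1, Ube2q2 and Ube2z) were not called. Each list held 1 at an unadjusted p below 0.05, beside 46.7% of all genes tested. Without bigenic mouse 2, Ube2o was called higher (0.23, limma adjusted p = 0.0343).

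The number of E2 members called, like that of all genes, varied with the mouse left out. Without nontransgenic mouse 1, 2 or 3, 2 E2 members were called, Ube2l3 and Ube2m, and 0 of the 4 falls passed, where 25.1% to 26.0% of all genes were called. Ube2b, Ube2e1 and Ube2e3 were also lost without bigenic mouse 1, and Ube2d2 without bigenic mouse 4. The log2 fold changes in those fits stayed between -0.31 and -0.30 for Ube2b, between -1.03 and -0.96 for Ube2e1, between -0.77 and -0.70 for Ube2e3 and between -0.29 and -0.26 for Ube2d2. Without bigenic mouse 2 or 3, 11 E2 members were called, beside 45.5% and 33.5% of all genes. Of the 22 members called, 13 were called in all 8 fits that leave out a mouse (59.1%, beside 64.2% of the genes called among all tested), and 0 changed sign.

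To compare close relatives within a mouse, the log2 ratio of the normalized counts of both genes was taken for 21 pairs in which both were tested. In 10 pairs the ratios of the 2 groups did not overlap, which gives the smallest p that 70 arrangements of 4 and 4 mice allow (exact two-sided permutation test, p = 0.0286). After Benjamini-Hochberg adjustment over the 21 pairs this became 0.06, so that 0 pairs passed 0.05, which pairs could reach only if more of them were separated. Ratios between genes depend on their lengths, so that differences between groups were read and not the ratios themselves. The difference was largest for Ube2f to Ube2m, with log2 ratios of -3.26, -4.31, -2.36 and -2.59 in the bigenic and -1.87, -1.72, -1.83 and -2.23 in the nontransgenic mice, a mean difference of -1.22 that was -0.82 without bigenic mouse 2. Ube2e2 to Ube2e3 differed by 0.72, where Ube2e2 itself had a change of -0.04 on the log2 scale (limma adjusted p = 0.724). Bigenic mouse 2 was far from the others in this pair, and without it the difference was 0.46. Usp12 to Usp46 differed by 0.52, with 0.31, 0.38, 0.14 and 0.26 in the bigenic and -0.30, -0.34, -0.19 and -0.14 in the nontransgenic mice. Usp5 to Usp13 differed by 0.36, although both rose. Usp20 to Usp33 (0.39), Usp53 to Usp54 (0.27), Ube2d1 to Ube2d3 (-0.07), Ube2e1 to Ube2e3 (-0.26, or -0.16 without bigenic mouse 2), Usp25 to Usp28 (-0.33) and Usp22 to Usp27x (-0.41) were the other pairs without overlap. For Ube2a to Ube2b the difference was -0.20 (-0.05 without bigenic mouse 2), and for Ube2d2 to Ube2d3 it was -0.01 (-0.11 without bigenic mouse 2). Their groups overlapped (p = 0.371 and p = 0.943 by the same exact permutation test).

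**Figure D4:**
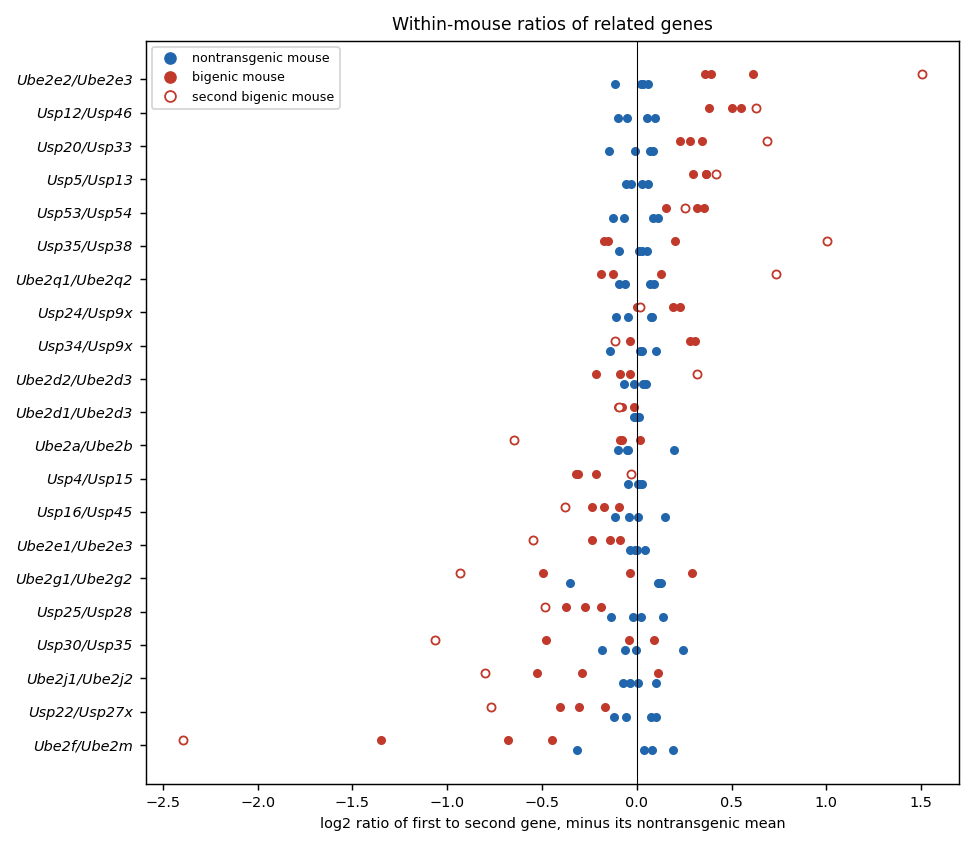
Log2 ratio of the first to the second gene of each of 21 pairs, minus the mean ratio of the nontransgenic mice, for each nontransgenic (blue) and bigenic (red) mouse. The open circle is bigenic mouse 2, and pairs are sorted by the difference between groups, from -1.22 for Ube2f to Ube2m to 0.72 for Ube2e2 to Ube2e3.

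Changes were set against the GC content of the exons. Over the 71 members with an annotation, Spearman's rho between log2 fold change and GC content was 0.297, against 0.217 over 10297 genes tested, where genes share the same 8 libraries and are not independent replicates. It was 0.14 over the 44 Usp and 0.36 over the 27 Ube2 members. Without bigenic mouse 2 rho was 0.185 for the members and 0.116 for all genes. The difference of bigenic mouse 2 from the other bigenic mice had a rho of 0.52 with GC content over the members and 0.409 over all genes. Median GC content was 47.05% for the members that rose and 43.78% for those that fell, beside 51.51% and 47.65% for all genes that rose or fell. After a quadratic trend on GC content and exon length was removed from each mouse, all 22 members called kept their call and direction, with 16 members rising and 15 falling in that fit (38.6% of genes with an annotation were then called, 20.3% higher and 18.3% lower). For the E2 members the split moved from 2 rises and 4 falls to 2 rises and 7 falls. Ube2m then had a log2 fold change of 0.92, Usp5 of 0.58 and Ube2e1 of -0.95.

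**Figure D5:**
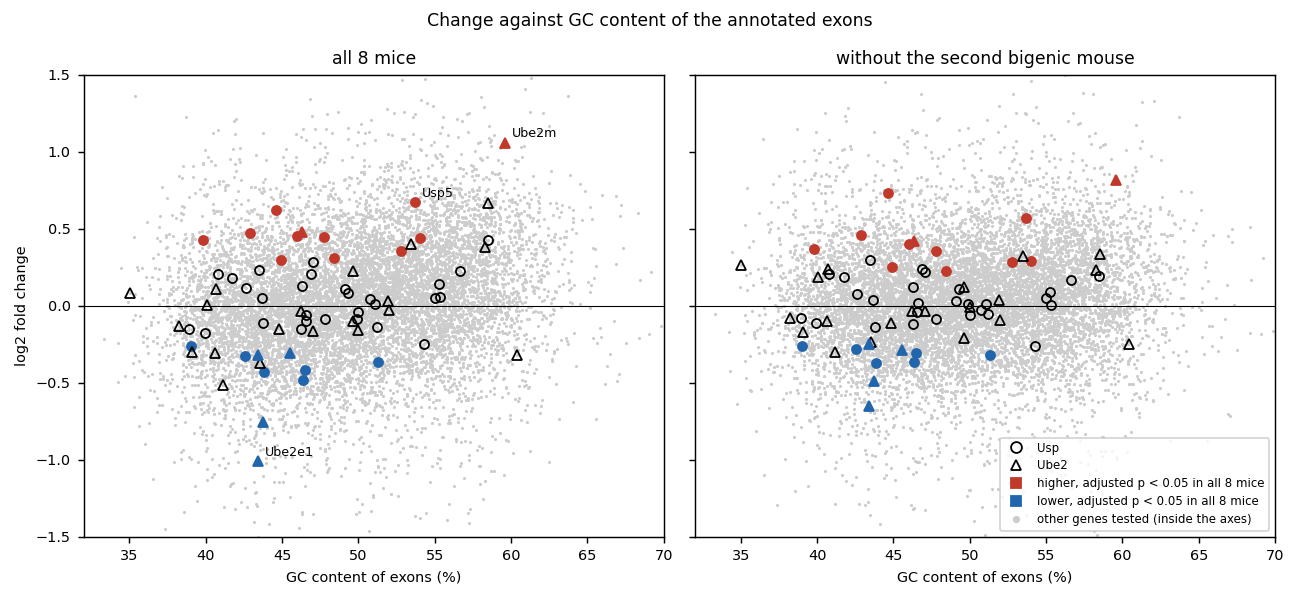
Log2 fold change against GC content of the annotated exons for the Usp (circles) and Ube2 (triangles) members reported here, with other genes tested in grey, from all 8 mice (left) and without bigenic mouse 2 (right). Red and blue mark members that rose or fell in the fit of all 8 mice. Spearman's rho over the 71 members is 0.297 on the left and 0.185 on the right.

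Members differed widely in level. Per kilobase of annotated exon, the nontransgenic mean was highest for Ube2ql1, an E2-like gene, at 1797 normalized counts, followed by Ube2b at 1361 and Usp22 at 957. Among the lowest were Usp3 at 40.8 and Usp49 at 54.7. Lengths are those of all annotated exons together, which can exceed the transcript that was counted. For 36 of 71 members every 50-base window of the exons was unique in the genome, and for 12 fewer than 90% were. Another gene shares exonic bases with 17 members, on the opposite strand only for 13 of them, and 9 of the 22 members called are among the 17. These 9 are Ube2l3, Ube2e1, Usp7, Usp31, Usp37, Usp45 and Usp46 on the opposite strand and Usp9x and Usp10 on the same strand.

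The rest of the pathway moved at a like rate. Of 106 tested genes for E1 enzymes, ubiquitin and its relatives, other E2 enzymes, other deubiquitinases, protease cofactors and E3 ligases, 20 rose and 16 fell (33.96%, beside 35.9% of all genes), with a median log2 fold change of 0.01. Among 29 deubiquitinases of other families 7 rose and 3 fell, and among 50 E3 ligases 10 rose and 8 fell. Vcpip1, a deubiquitinase of the p97 pathway, had the smallest adjusted p of these genes. It had 5310, 4930, 5253 and 5514 normalized counts in the bigenic and 2993, 2721, 2645 and 2845 in the nontransgenic mice. The groups were far apart, at a log2 fold change of 0.91 (SE 0.07, limma adjusted p = 3.5e-05). Cyld, which removes Lys63-linked chains and is a negative regulator of NF-kB, fell by 0.71 on the log2 scale (SE 0.09, limma adjusted p = 0.000298). Bap1, a protease of histone H2A, rose by 0.54, and so did the E3 ligases Cblb (0.62), Traf6 (0.60), Ube3b (0.44) and Ubr2 (0.41) and the cullin Cul4a (0.58), all called in each of the 8 fits that leave out a mouse.

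At the head of the cascade, Uba1, the main ubiquitin E1, had 6557, 8200, 6468 and 6582 normalized counts in the bigenic and 5270, 5074, 5119 and 5346 in the nontransgenic mice. All bigenic mice were above the controls, by a log2 fold change of 0.41 (SE 0.09, limma adjusted p = 0.00562). The polyubiquitin gene Ubb did not pass the test, with a change of -0.16 on the log2 scale (limma adjusted p = 0.588) and overlapping groups, and the direction turned to 0.05 without bigenic mouse 2. Uchl1, an abundant neuronal ubiquitin hydrolase, had 6792, 12741, 7435 and 7467 in the bigenic and 6222, 6420, 6382 and 5870 in the nontransgenic mice. Its groups did not overlap, but with the high value of bigenic mouse 2 the log2 fold change of 0.42 did not pass (limma adjusted p = 0.0813), whereas without it a change of 0.22 passed (limma adjusted p = 0.0139). Ube3a, the ligase of Angelman syndrome, had 2936 to 3838 in the bigenic and 2786 to 2930 in the nontransgenic mice, and its change of 0.22 on the log2 scale did not pass (limma adjusted p = 0.0985).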

How the data were processed

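RNA was poly(A)-selected and sequenced as 50-base single-end reads. Per the study's methods, adaptors were removed (cutadapt), reads were aligned to mm9 (Bowtie 0.12.7), those with a single location were retained, and reads per exon (bedtools) were added up per gene. The signal deposited by the authors is a whole number per transcript and mouse, namely a count scaled for its library and rounded. Whole reads could not be restored where 1 read is worth less than 1 normalized count, so tests for raw counts were not run. A second deposited table pairs transcripts with symbols. It also holds the authors' mean, fold changes and p-values from DESeq2. The mean was used to check the join (largest relative difference 2.241%) and the comparison columns were not used.

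Genes with at least 10 RPM in at least 1 mouse (10588) were compared as log2(value + 1), with a pseudocount of 1, in limma 3.58.1 (lmFit, eBayes with a trend, R 4.3.3). The Benjamini-Hochberg adjustment covered all of them, with a threshold of 0.05. The fit was tested on simulated data. Annotation came from GENCODE on mm9. Members, role lists, markers and pairs were chosen with earlier results of these data known. All members called are named. Values in every mouse are given for the 8 Usp and 6 Ube2 members with the smallest p and for a fixed set (Usp5, Usp7, Usp9x, Usp14, Usp22, Usp49, Ube2a, Ube2b, Ube2k, Ube2m and Ube2n). Of the other pathway genes, the 8 with the smallest p and Uba1, Ubb, Uchl1 and Ube3a are named. Other members and marker genes named were chosen after their values were seen, or stand in a list or pair. Of these fixed sets, 1 member and 1 other pathway gene are counted but not reported here. Columns name the genotype but not the replicate number of the labels, and mice are numbered in column order.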

Additional observations from a re-analysis of the deposited data

Results flagged for a closer look

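Each group of 4 mice was searched for a highest or lowest value far from the rest, by the gap to the nearest other mouse over the range of the group (Dixon's test at 95%). Of 130 groups over 65 genes, 12 held such a value, and chance gives about 1 in 20 groups. Bigenic mouse 2 gave 8 of the 12. It was the highest bigenic mouse for Usp8 (3162 normalized counts, others 2701 to 2760), Usp28 (1489, others 1139 to 1182), Usp36 (1400, others 904 to 959), Usp20 (1611, others 1368 to 1404), Uba1 (8200, others 6468 to 6582) and Uchl1 (12741, others 6792 to 7467). The same mouse was the lowest of its group for Ube2a (482, others 846 to 939) and Ube2d3 (1454, others 2001 to 2130). Nontransgenic mouse 4 was the lowest control for Ube2d2 (698, others 839 to 861) and Ube2f (408, others 468 to 472) and the highest for Ube2g2 (615, others 473 to 493), whose exons overlap those of Sumo3 on the same strand. Bigenic mouse 1 was the highest of its group for Cyld (3862, others 3269 to 3305), still below every nontransgenic mouse. Why these mice differ was not tested.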

How the results depend on the processing

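Under limma's array weights, which gave bigenic mouse 2 a weight of 0.0843, the calls rose from 22 to 45 members (26 Usp and 19 Ube2 members) and from 36 to 61 other pathway genes. The share of all genes called rose to 61.0%. Leaving out each mouse in turn gave 14 to 31 members, 12 to 20 Usp members, 2 to 11 Ube2 members, 26 to 46 other pathway genes and 0 of 21 pairs. The share of all genes called in the same fits ran from 25.1% to 45.5%. The lowest member count, 14, came without nontransgenic mouse 1, 2 or 3, and the highest, 31, without bigenic mouse 2. Another pseudocount (0.1 or 10), keeping genes of low values, requiring 10 RPM in every mouse, each of the 3 rescalings, eBayes without a trend and the removal of the GC and length trend, chosen after seeing the data, kept these 4 counts within 1.5 times. Without a filter, Usp13 was not called. Rescaling moved the median of all genes by at most 0.03. No paired analysis was possible because the columns name the genotype but carry no replicate number of the labels. Estimated depth was lowest, at 10.6 M reads counted in genes, in bigenic mouse 2.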
